A study of Homo sapiens with 9 samples.

Results

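The genes described are those of the cytoplasmic ribosomal proteins, the protein subunits of the ribosome outside mitochondria. Members are protein-coding genes whose symbol starts with RPL or RPS and a digit, together with RPLP0, RPLP1, RPLP2 and RPSA, without pseudogenes, antisense genes and the RPS6K kinases. The rule found 91 of the 78899 gene IDs in the count files. Of these, 77 are standard subunits (43 of the large subunit, 3 of its stalk and 31 of the small subunit), 10 are paralogs of standard subunits, and 3 are readthrough genes that join a ribosomal protein gene to its neighbour (RPL17-C18orf32, RPL36A-HNRNPH2 and RPS10-NUDT3). RPS19BP1 shares the letters of the rule only, and encodes a protein that binds RPS19. FAU and RACK1 encode ribosomal components but fall outside the rule by their symbols, and are given beside the members. The filter on low counts kept 84 of the 91 members, among them all 77 standard subunits, and 16921 genes in all.

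Total RNA of HaCaT cells, an established line of immortalized human keratinocytes, was sequenced in 9 libraries. The labels give 3 libraries of a subpopulation called BD, 3 of a subpopulation called NBD and 3 of the cell line, called control, and do not spell out the names. The series' design text describes the subpopulations as defined by fluorescence-activated sorting, with an interest in states linked to progenitors, and all cells were kept in low-calcium medium with serum. No genetic change or drug is named for any group. The labels do not place replicates in separate cultures, and p-values therefore rest on a spread between libraries that may be technical. The protocol lists a pair of RNA kits without saying which library used which.

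Libraries held 17128797 to 29512856 counts. All 10 keratinocyte markers checked were present in every library, at a summed 3108 to 4770.2 CPM (counts relative to the scaled library total), among them KRT5, TP63 and ITGA6. Markers of leukocytes and red cells summed to at most 0.414 and 0.0787 CPM, and PTPRC, CD3E and HBB reached at most 0.148, 0.0370 and 0.0787 CPM. Markers of simple epithelium, KRT8, KRT18, KRT19 and EPCAM, were present in every library too, at a summed 1421 to 2440.4 CPM, and lists for fibroblasts, melanocytes, endothelium and neural cells summed to at most 5.03, 5.63, 18.9 and 25.1 CPM. Control replicates 1 and 2 stood apart from the other 7 libraries, with 12.3% and 11.9% of counts in mitochondrial rRNA against 17.3% to 28.9%, and with a small nucleolar RNA share of 1.07% and 1.19% against 0.126% to 0.745%. Comparisons with the control are therefore given with all libraries, without control replicate 3 and, where the direction changes, without control replicates 1 and 2.

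Ribosomal proteins are made in balanced amounts and assembled in the nucleolus with rRNA into a large and a small subunit. In vertebrates their mRNAs typically start with a cytosine followed by a run of pyrimidines, the terminal oligopyrimidine or TOP motif, which lets mTOR signalling and LARP1 set their translation together with that of the elongation factors. Keratinocytes that leave the proliferating basal state are known to reduce ribosome production.

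RefSeq transcription starts (GRCh38.p14) were found for 62 of the 77 standard subunits. Shown are 30 bases per gene, 15 before the start and 15 from the start on, 5′ to 3′ on the gene's strand, so that base 16 is the first transcribed base; capitals mark the longest pyrimidine run that reaches within 10 bases of the start. RPLP0, RPS6 and RPS3 show the usual TOP start, and RPL36A, RPS10 and RPS16 are the members whose levels departed from the rest. RPL9 and RPS27A lack it at the annotated start, RPL22L1 and RPL7L1 are the paralogs with the largest differences, and EEF1A1 and EEF2 are the elongation factors of the same mRNA class.
RPLP0 (chr12:120201097-120201126, minus strand): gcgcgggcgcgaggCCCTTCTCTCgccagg
RPS6 (chr9:19380222-19380251, minus strand): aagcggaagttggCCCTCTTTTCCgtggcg
RPS3 (chr11:75399503-75399532, plus strand): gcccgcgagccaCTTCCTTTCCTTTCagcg
RPL36A (chrX:101390996-101391025, plus strand): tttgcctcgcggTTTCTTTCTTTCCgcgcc
RPS10 (chr6:34426055-34426084, minus strand): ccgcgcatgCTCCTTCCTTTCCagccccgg
RPS16 (chr19:39435935-39435964, minus strand): gtggcccctagCTTTCCTTTTCCggttgcg
RPL9 (chr4:39458908-39458937, minus strand): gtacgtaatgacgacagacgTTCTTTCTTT
RPS27A (chr2:55231888-55231917, plus strand): taaggagtgacacacaagaCCCagactctt
RPL22L1 (chr3:170870181-170870210, minus strand): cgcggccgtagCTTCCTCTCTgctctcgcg
RPL7L1 (chr6:42879601-42879630, plus strand): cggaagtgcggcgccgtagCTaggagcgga
EEF1A1 (chr6:73521018-73521047, minus strand): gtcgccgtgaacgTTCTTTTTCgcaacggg
EEF2 (chr19:3985449-3985478, minus strand): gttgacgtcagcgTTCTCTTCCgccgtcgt

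A cytosine stood at the annotated start of 46 of the 62 standard subunits (74.2%), against 14.99% of all 27305 RefSeq promoters of the same length. A cytosine followed by at least 4 pyrimidines stood at 42 (67.7%), against 4.04%. Over the window from 250 bases before to 50 after the start, searched on both strands with each motif counted on its own, the ETS core CCGGAA was in 53.2% of the standard subunits against 17.6% of all promoters. The E-box CACGTG was in 4.84% against 7.43%, the GC box GGGCGG in 54.8% against 44.6%, and the TATA box TATAAA in 8.06% against 12.0%. Of the genes of ribosome biogenesis, by contrast, 46.4% of 28 held CACGTG and 17.9% had a TOP start. These matches describe letters and not bound sites.

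The standard subunits held between 2.84% and 6.47% of all counts. Their share was 3.96%, 6.47% and 5.92% in BD replicates 1, 2 and 3, 2.84%, 4.03% and 5.09% in NBD, and 4.95%, 5.46% and 4.97% in the control. The 3 groups overlapped, with means of 5.45 ± 1.32% in BD, 3.98 ± 1.12% in NBD and 5.13 ± 0.288% in control (SD, n = 3 each). Wilson 95% intervals of single libraries spanned at most 0.0215 percentage points and cover counting error only. With mitochondrial rRNA left out of the total, the means were 6.81 ± 1.49%, 5.52 ± 1.62% and 6.03 ± 0.339%, and the order of the groups was the same. The large subunit took 1.69 to 1.82 times the counts of the small subunit in each library. In bulk RNA, fewer cells of a type and less RNA per cell cannot be told apart.

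Per kilobase of transcript, with GENCODE 29 lengths, the mean level over the 9 libraries had a median of 816 CPM per kb over the 77 genes, with quartiles at 572 and 1165 CPM per kb. RPL35 stood highest at 2976 CPM per kb, followed by RPLP0, the stalk base that carries RPLP1 and RPLP2, at 2528 CPM per kb. RPL7A and RPL12 followed at 2188 and 2113 CPM per kb. A ribosome holds most of its proteins in a single copy, with the stalk proteins RPLP1 and RPLP2 as exceptions. By mRNA level, 6 of the 77 genes stood under 100 CPM per kb. Among them were RPS10 (8.74 CPM per kb), RPL36A (14.8), RPS16 (54.9), RPL17 (62.4) and RPS28 (82.9). In GENCODE 29, RPS10 shares 39.4% of its exonic bases with RPS10-NUDT3, RPL17 shares 32.7% with RPL17-C18orf32 and 2 small nucleolar RNA genes, and RPL36A shares 8.40% with RPL36A-HNRNPH2. RPS16 shares 0.0%. RPL36A also has 52 pseudogene IDs by symbol, and RPS16 has 6. The sources used here do not give how the authors counted reads in overlapping genes or with several matches, so the counts of these genes are uncertain, and its part in their low level was not tested. The 1601 pseudogene IDs listed for the family held 0.0272% to 0.0580% of counts.

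The standard subunits moved together from library to library. Each gene's log2 CPM was set against its own mean over the 9 libraries, and the median of these deviations over the 77 genes was -0.32, 0.45 and 0.30 in BD replicates 1, 2 and 3, -0.76, -0.11 and 0.31 in NBD, and -0.062, 0.16 and 0.019 in the control. NBD replicate 1 was lowest and BD replicate 2 highest, and libraries of the same group lay on both sides of 0. NBD replicate 1 had the lowest level of all 9 libraries for 73 of the 77 genes. BD replicate 1 was the lowest BD library for 73 genes, and NBD replicate 3 the highest NBD library for 70. The median ratio of NBD replicate 3 to NBD replicate 1 was 2.13, and it exceeded 2 for 53 genes. The pooled within-group SD of the library median was 0.39 on the log2 scale. Across the 9 libraries, 46 genes followed the median of the other 76 with a Pearson r above 0.9, with RPL32 (r = 0.998) closest. The r describes libraries that share depth and preparation. RPL36A (-0.55), RPS10 (-0.25) and RPS16 (0.41) were among the genes below 0.5, and these 3 are also among the 6 lowest per kilobase.

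**Figure D1:**
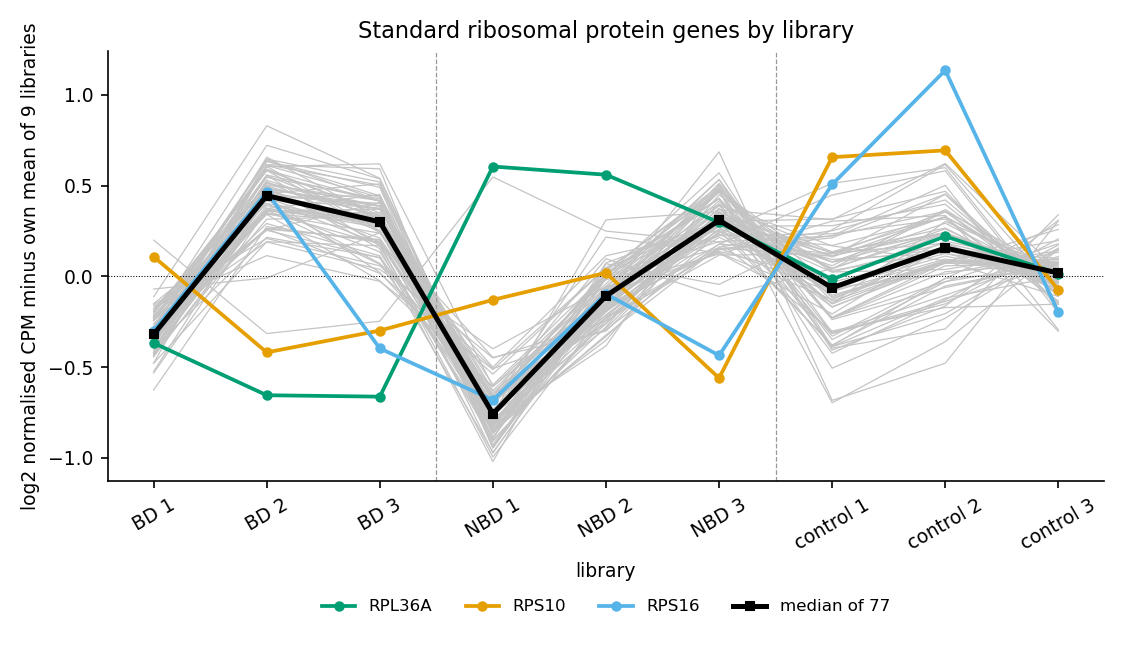
Deviation of log2 normalised CPM from each gene's own mean of 9 libraries (vertical axis) by library (horizontal axis) for 77 standard ribosomal protein genes (grey lines), their median (black) and 3 genes with r below 0.5 (colours). The median runs from -0.76 in NBD replicate 1 to 0.45 in BD replicate 2, and RPL36A is high in NBD replicate 1 where the median is low.

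Single members show the common profile. RPLP0, the stalk base, stood at 1772, 3123 and 2618 CPM in BD, at 1189.8, 1837 and 2437 CPM in NBD and at 1985, 2240.4 and 2059.7 CPM in the control. RPS6, the subunit phosphorylated by S6 kinases, stood at 787, 1431 and 1269.5 CPM in BD, at 539.9, 861 and 1137 CPM in NBD and at 899.7, 1019 and 939 CPM in the control. RPSA, a small subunit protein also known as a laminin receptor, stood at 504, 914 and 698 CPM in BD, at 331, 531 and 688 CPM in NBD and at 719.7, 850.4 and 579 CPM in the control. For each of these 3 genes NBD replicate 1 was the lowest library and BD replicate 2 the highest, and the BD and NBD ranges overlapped.

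RPL5 and RPL11, which bind MDM2 with 5S rRNA when ribosome assembly is disturbed, did not share one order of groups. RPL5 stood at 534, 881 and 746 CPM in BD, at 382, 676 and 776 CPM in NBD and at 792, 871 and 632 CPM in the control. RPL11 stood at 611, 852 and 947 CPM in BD, at 462, 694 and 1034 CPM in NBD and at 577, 665 and 771 CPM in the control. RPL11 was thus highest in NBD replicate 3, while RPL5 was highest in BD replicate 2. RPS19, mutated in Diamond-Blackfan anaemia, stood at 369.8, 578 and 534.5 CPM in BD, at 275, 386 and 567 CPM in NBD and at 394, 463 and 466 CPM in the control. RPS27A, made as a fusion with ubiquitin, stood at 552, 825 and 793 CPM in BD, at 385, 621 and 834 CPM in NBD and at 836, 908 and 640.4 CPM in the control. RPL41, the smallest subunit, stood at 407, 653 and 616 CPM in BD, at 288, 465 and 622 CPM in NBD and at 353, 425 and 461 CPM in the control. The 3 groups overlapped for all 5 genes.

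Between the sorted subpopulations, most ribosomal protein mRNAs were higher in BD than in NBD on average, but by less than the spread between replicates. Of the 77 standard subunits, 73 had a log2 fold change above 0, with a median of 0.29, against 48.4% of the 16921 genes tested and a median of -0.015. The median was 0.27 for the large subunit, 0.30 for the stalk and 0.34 for the small subunit, and the median standard error of a gene was 0.30. The largest positive values were in RPS3A (0.52 ± 0.30), RPL9 (0.51 ± 0.38), RPL13 (0.51 ± 0.34) and RPS3 (0.50 ± 0.36), given as log2 fold change ± standard error. RPL36A (-1.05 ± 0.21), RPL22 (-0.046 ± 0.22) and RPS28 (-0.039 ± 0.31) were among the 4 below 0.

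By edgeR's quasi-likelihood F-test adjusted by Benjamini-Hochberg, 0 of the 77 standard subunits and 0 of all 84 members tested were called at an adjusted p under 0.05, where 0.0177% of all genes were. An unadjusted p under 0.05 was reached by 1 of the 77, RPL36A, against 5.86% of all genes, and 1 of the 77 had BD and NBD ranges that did not overlap, against 14.6%. DESeq2 called 1 of the 77, RPL36A, against 0.273% of genes. The median rested on single libraries: it was 0.053 without NBD replicate 1, 0.59 without NBD replicate 3, 0.47 without BD replicate 1 and 0.12 without BD replicate 2. The share of the ribosomal proteins overlapped between BD and NBD, but other RNA classes had ranges that did not overlap. Mitochondrial rRNA took 17.3% to 22.3% of counts in BD and 26.8% to 28.9% in NBD. The nuclear RNAs MALAT1 and NEAT1 together took 0.285% to 0.370% against 0.591% to 0.689%. Small nucleolar RNAs took 0.126% to 0.145% against 0.572% to 0.745%. Without the mitochondrial rRNA genes in the totals the median was 0.30, and with a trend on transcript length removed it was 0.28.

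**Figure D2:**
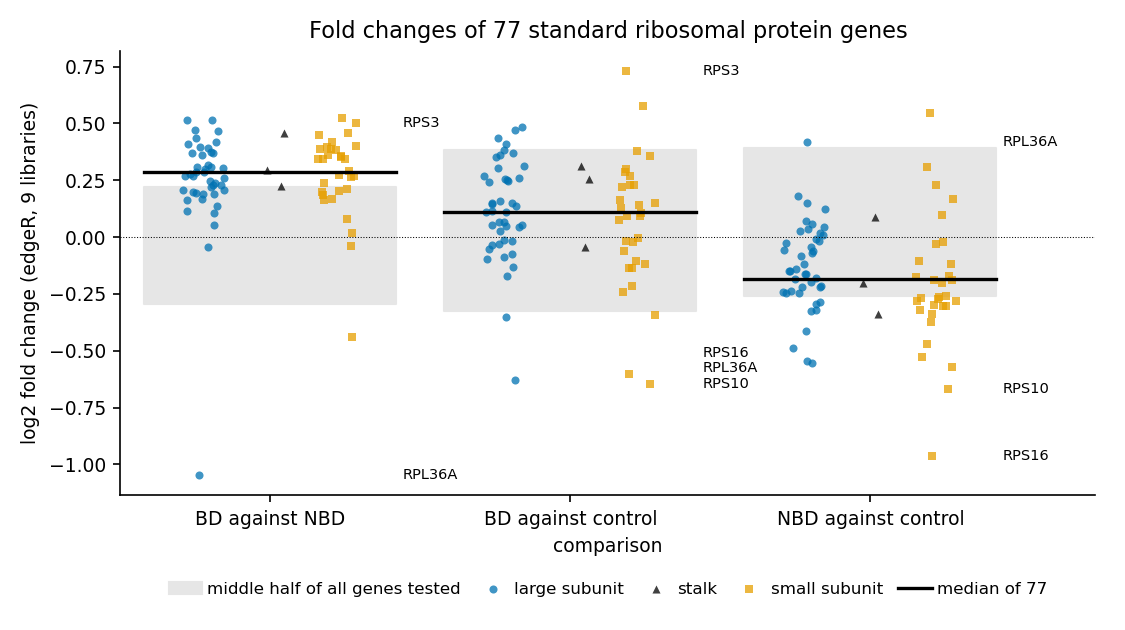
Log2 fold changes from the edgeR fit of 9 libraries (vertical axis) for 43 large subunit, 3 stalk and 31 small subunit genes in the 3 comparisons (horizontal axis), with the median of 77 as a black line and the interquartile range of all genes tested in grey. The medians are 0.29, 0.11 and -0.18, and RPL36A lies at -1.05 in BD against NBD.

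RPL36A, an X-linked large subunit protein of the tRNA exit region (chrX:101390824-101396154 in GENCODE 29, on GRCh38), went against the other members. It stood at 7.57, 6.20 and 6.17 CPM in BD, at 14.9, 14.4 and 12.0 CPM in NBD, and at 9.66, 11.4 and 9.87 CPM in the control. All 3 BD libraries lay below all control libraries, and all 3 NBD libraries above them. The counts behind these levels were 158 to 218 in BD and 305 to 401 in NBD. Against NBD the log2 fold change in BD was -1.05 ± 0.21, with an adjusted p of 0.324 by edgeR's quasi-likelihood F-test adjusted by Benjamini-Hochberg. DESeq2 gave -1.03 ± 0.23 with an adjusted p of 0.00426. Over the 18 alternatives the value ran from -1.16 to -0.95 and the adjusted p from 0.00426 to 1.0, and DESeq2 was the 1 alternative that called it. Its paralog RPL36AL, whose protein is nearly identical, was far more abundant and followed the common profile, at 92.7, 163 and 147 CPM in BD, 75.05, 125 and 158 CPM in NBD and 96.1, 104 and 112 CPM in the control. RPL36AL made up 94.9 ± 2.15% of the counts of the pair in BD, 88.7 ± 4.81% in NBD and 91.0 ± 0.897% in the control (SD, n = 3 each), and BD and NBD overlapped on this share. RPL36A-HNRNPH2 had 0 counts in all libraries.

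**Figure D3:**
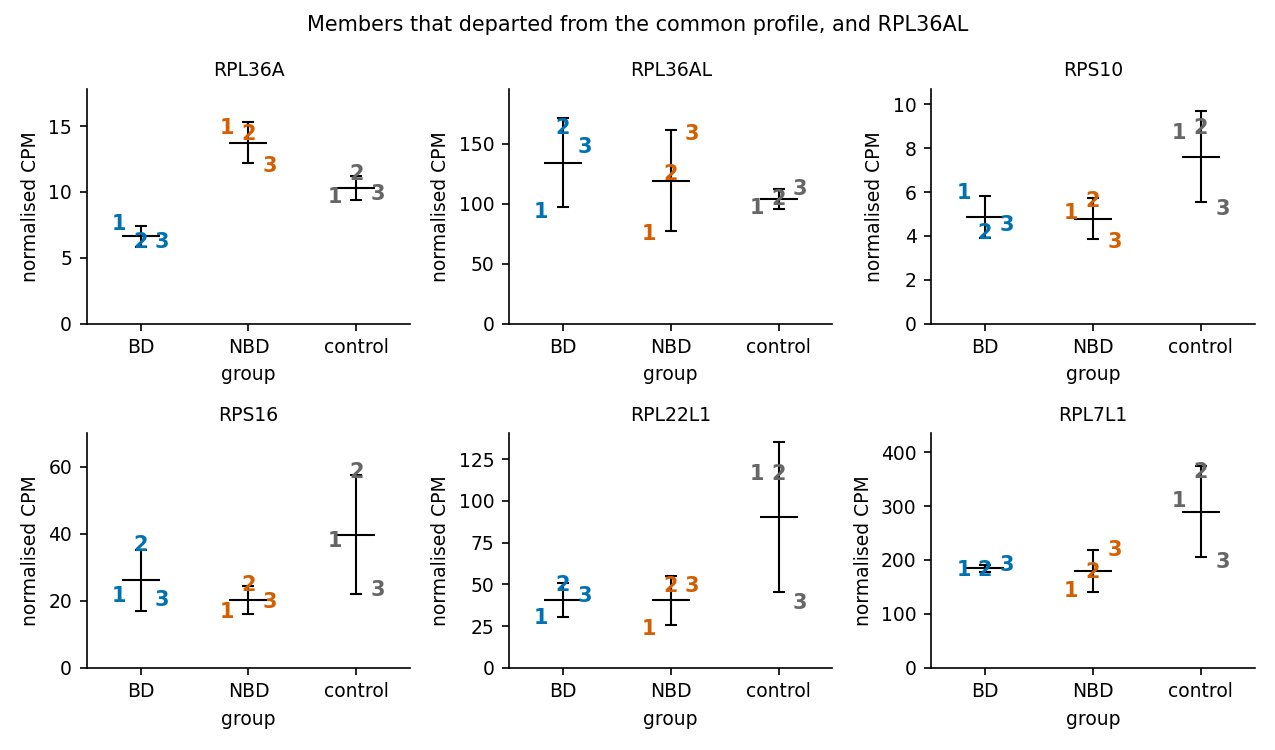
Normalised CPM (vertical axes) by group (horizontal axes) for 3 standard subunits and 3 paralogs; digits are replicate numbers, and bars give the mean ± SD of 3 libraries. RPL36A is lowest in BD and highest in NBD, RPL36AL overlaps between the groups, and RPS10, RPS16, RPL22L1 and RPL7L1 are highest in control replicates 1 and 2 and not in control replicate 3.

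Against the control cells, no ribosomal protein gene was called in either subpopulation with all libraries and the filter on low counts (edgeR). With no filter 39344 genes were fitted and calls rose across all genes, by the counts given below under processing. Under that setting edgeR called the paralog RPL22L1 lower in both (adjusted p = 0.000265 in BD and 0.000374 in NBD). It also called RPS16 lower in NBD (edgeR, adjusted p = 0.0175). In BD against control, 51 of the 77 had a log2 fold change above 0, with a median of 0.11, where all genes had 51.9% above 0 and a median of 0.027. In NBD against control, 17 of the 77 were above 0, with a median of -0.18, where all genes had a median of 0.037. The 2 comparisons use the same control libraries. Largest in BD were RPS3 (0.73 ± 0.36), RPS27 (0.58 ± 0.40), RPL38 (0.48 ± 0.33) and RPL9 (0.47 ± 0.38), and lowest RPS10 (-0.65 ± 0.30), RPL36A (-0.63 ± 0.21), RPS16 (-0.60 ± 0.34) and RPL7 (-0.35 ± 0.34). Among the largest in NBD were RPL36A (0.42 ± 0.21), RPS27 (0.31 ± 0.40) and RPS3 (0.23 ± 0.36), and lowest were RPS16 (-0.96 ± 0.35), RPS10 (-0.67 ± 0.30), RPS20 (-0.57 ± 0.34) and RPL7 (-0.55 ± 0.34).

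By edgeR's quasi-likelihood F-test adjusted by Benjamini-Hochberg, 0 of the 77 were called in either comparison, where 0.0% of all genes were. In BD against control an unadjusted p under 0.05 was reached by 1 of the 77, RPL36A, against 13.8% of all genes, and in NBD against control by 2 of the 77, RPS16 among them, against 9.13%. Ranges did not overlap for 1 of the 77 in BD against control (15.8% of all genes) and for 2 of the 77, RPL36A among them, in NBD against control (8.42%). DESeq2 called 0 of the 77 in both, against 1.07% and 0.255% of genes. The median in NBD was 0.056 without NBD replicate 1 and -0.47 without NBD replicate 3, and in BD it was 0.29 without BD replicate 1 and -0.023 without BD replicate 2.

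**Figure D4:**
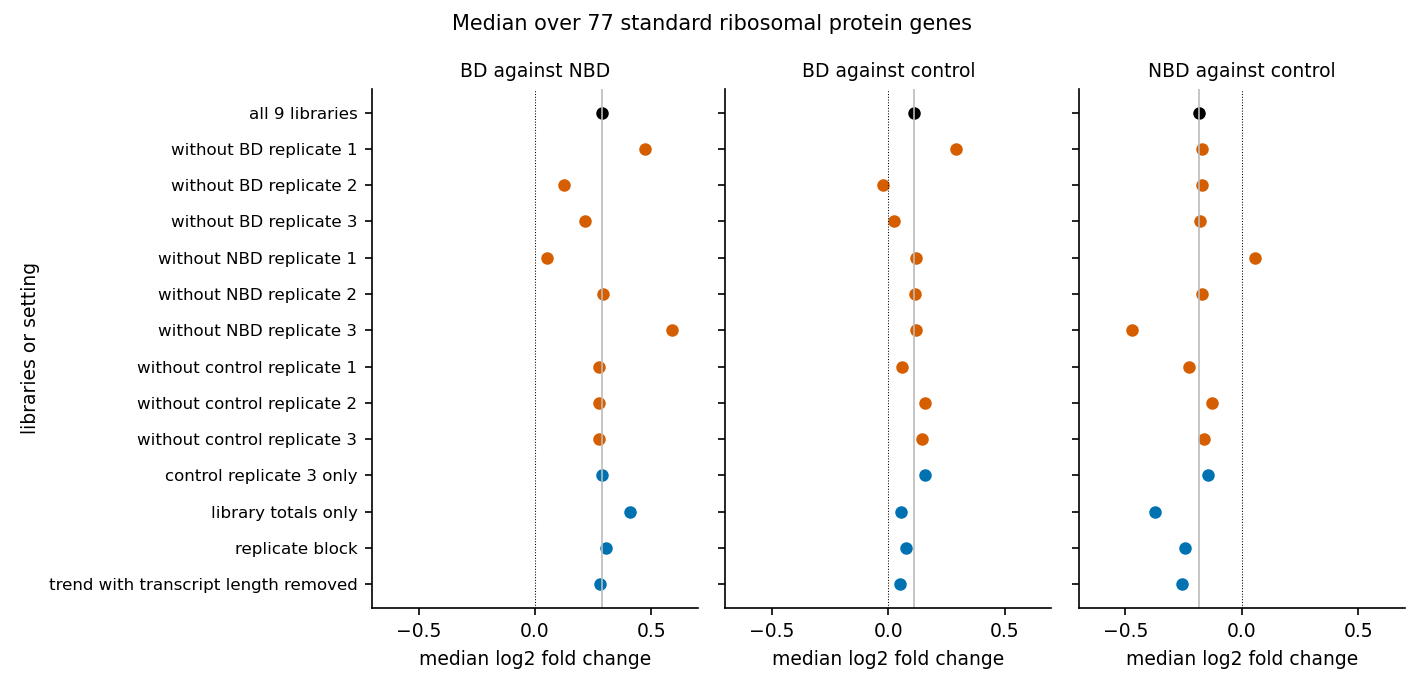
Median log2 fold change over 77 standard ribosomal protein genes (horizontal axes) with all libraries (black), with 1 library left out (orange) and under other settings (blue), for the 3 comparisons. In NBD against control the median moves from -0.18 to 0.056 without NBD replicate 1, and in BD against NBD from 0.29 to 0.053.

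Leaving out control replicate 3 leaves control replicates 1 and 2, the libraries that stood apart. In BD against control 24.3% of 17755 genes were then called. Of the 84 members tested, 4 (4.76%) were called lower, a smaller share than the 10.5% of all genes in that direction. These were the paralogs RPL22L1 (log2 fold change -1.50 ± 0.31, adjusted p = 0.00602) and RPL7L1 (-0.85 ± 0.21, adjusted p = 0.0136) and the standard subunits RPS10 (-0.85 ± 0.27, adjusted p = 0.0408) and RPL36A (-0.65 ± 0.22, adjusted p = 0.0487), by edgeR's quasi-likelihood F-test adjusted by Benjamini-Hochberg. In NBD against control 18.2% of genes were called, and 4 of the 84 members (4.76%) were called lower, against 6.56% of all genes. By the same edgeR test and adjustment these were RPL22L1 (-1.50 ± 0.31, adjusted p = 0.00782), RPL7L1 (-0.89 ± 0.21, adjusted p = 0.0152), RPS16 (-1.22 ± 0.29, adjusted p = 0.0168) and RPS10 (-0.86 ± 0.27, adjusted p = 0.0474). With control replicates 1 and 2 left out instead, RPL22L1 was at 0.073 in BD and 0.058 in NBD, so its direction rested on control replicates 1 and 2.

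RPL22L1, a paralog of RPL22 that also binds RNA and affects splicing, stood at 29.7, 49.4 and 42.8 CPM in BD, at 23.4, 48.9 and 49.0 CPM in NBD, and at 116.2, 116.2 and 38.6 CPM in control replicates 1, 2 and 3. The first 2 control libraries lay above the other 7, and control replicate 3 lay within the sorted libraries. RPL22 did not show this, at 69.7, 84.5 and 76.6 CPM in BD, 54.7, 80.7 and 102.8 CPM in NBD and 87.7, 82.9 and 72.3 CPM in the control. RPL22L1 made up 57.0% and 58.4% of the counts of the pair in control replicates 1 and 2, 34.8% in control replicate 3 and 29.9% to 37.7% in the sorted libraries. RPL7L1, a nucleolar paralog of RPL7 that takes part in ribosome assembly, stood at 180.5, 181.7 and 191.5 CPM in BD, at 142, 177 and 219 CPM in NBD and at 309.6, 362 and 196 CPM in the control. RPL7 stood at 787, 1202.5 and 1114 CPM in BD, at 529, 949 and 1223 CPM in NBD and at 1478, 1569 and 914 CPM in the control, so both members of this pair were highest in control replicates 1 and 2.

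RPS16, a small subunit protein near the decoding region, stood at 21.6, 36.6 and 20.2 CPM in BD, at 16.6, 24.8 and 19.6 CPM in NBD and at 37.7, 58.3 and 23.2 CPM in the control. RPS10, another small subunit protein, stood at 5.94, 4.12 and 4.48 CPM in BD, at 5.04, 5.59 and 3.74 CPM in NBD and at 8.69, 8.91 and 5.24 CPM in the control, from 95 to 171 counts. For both, control replicates 1 and 2 were the highest 2 libraries. The same libraries were high for members on chromosome 8. RPL7, RPL8, RPL30 and RPS20 together had a median deviation from the common profile of 0.41 and 0.43 (log2) in control replicates 1 and 2, -0.15 in control replicate 3 and -0.22 to -0.048 in the sorted libraries. Of these, RPL30 was at 0.12 and 0.21 in control replicates 1 and 2. RPS24 on chromosome 10 (0.38 and 0.31) and RPS29 on chromosome 14 (0.37 and 0.47) were also high there, so this was not particular to chromosome 8. The 5 members on chromosome 11, RPL27A, RPLP2, RPS13, RPS25 and RPS3, had a median of -0.27 and -0.17 in control replicates 1 and 2, but did not move alike: in control replicate 1 RPS3 was at -0.63 and RPS13 at 0.20. These chromosomes were picked after their values were seen.

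The paralogs RPL39L, RPL26L1 and RPS27L did not share the high level of RPL22L1 and RPL7L1 in control replicates 1 and 2. RPL39L, a paralog of RPL39, stood at 28.9 to 53.7 CPM, lowest in NBD replicate 1 and highest in BD replicate 2, as the common profile was. It made up 12.7% to 19.6% of the pair. RPL26L1 stood at 18.5 to 34.8 CPM and made up 4.48% to 8.64% of the pair with RPL26. RPS27L, which p53 is known to induce, stood at 21.2 to 28.8 CPM in all 9 libraries while RPS27 ran from 389 to 1005 CPM. The log2 fold change of RPS27L was -0.021 ± 0.17 in BD against NBD, 0.0056 ± 0.17 in BD against control and 0.026 ± 0.17 in NBD against control. RPL3L, the muscle paralog of RPL3, had 1 to 5 counts a library, and the testis paralog RPL10L had 0 in all libraries, where RPL3 and RPL10 were abundant.

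The genes that work with ribosomal proteins were read from lists. FAU, a fusion of a ubiquitin-like protein with a small subunit protein, stood at 227, 332 and 271 CPM in BD, 173, 225 and 282 CPM in NBD and 268, 337 and 242 CPM in the control. RACK1, a scaffold on the small subunit, stood at 1048 to 1686 CPM in BD, 748 to 1499.8 CPM in NBD and 1024 to 1255 CPM in the control. Both were lowest in NBD replicate 1, as most members were. The 13 tested translation factors of the TOP class had library medians of -0.22, 0.43 and 0.19 in BD, -0.69, -0.080 and 0.18 in NBD and -0.015, 0.25 and -0.080 in the control, on the scale of log2(CPM + 0.5), and so moved close to the ribosomal proteins. EEF1A1, which delivers aminoacyl-tRNA, stood at 7750.3, 12619 and 12164 CPM in BD, 5001, 7419.6 and 11070.2 CPM in NBD and 7186, 7833 and 8702 CPM in the control. EEF2, the translocase, stood at 1682, 2477 and 2401 CPM in BD, 1101, 1338 and 1363 CPM in NBD and 1559, 1921 and 1909 CPM in the control, with every BD library above every NBD library. Ranges of BD and NBD did not overlap for 14.6% of all genes. PABPC1, the poly(A)-binding protein and also of this class, did not follow, at 562, 534 and 539 CPM in BD, 541, 766 and 434 CPM in NBD and 1264, 1130.5 and 436 CPM in the control.

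The 33 genes of ribosome biogenesis had another profile, with medians of -0.18, -0.058 and -0.25 in BD, -0.36, 0.13 and -0.039 in NBD and 0.33, 0.56 and -0.24 in the control. Their highest libraries were control replicates 1 and 2. With all libraries 0 of the 33 were called against the control by edgeR's quasi-likelihood F-test adjusted by Benjamini-Hochberg, where 0.0% of all genes were. An unadjusted p under 0.05 was reached by 7 of the 33 in BD, against 13.8% of all genes, and by 2 in NBD, against 9.13%. Without control replicate 3, 13 were called lower in BD and 8 in NBD, against 10.5% and 6.56% of all genes in that direction. NOLC1, a nucleolar chaperone, stood at 94.1, 111 and 101 CPM in BD, 84.6, 206 and 102 CPM in NBD and 299, 336 and 106 CPM in the control. NCL, nucleolin, stood at 229, 237 and 208 CPM in BD, 209.7, 408 and 235 CPM in NBD and 474, 544 and 217 CPM in the control. FBL, the rRNA methyltransferase, stood at 35.0, 41.3 and 43.8 CPM in BD, 27.3, 47.5 and 40.2 CPM in NBD and 66.5, 74.2 and 29.2 CPM in the control. For all 3 genes control replicate 3 lay with or near the sorted libraries.

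The 11 genes of RNA polymerase I had library medians between -0.17 and 0.15. MYC, which drives ribosome production, stood at 242, 335 and 359.6 CPM in BD, 203, 212 and 211 CPM in NBD and 206, 240.4 and 292 CPM in the control. Every BD library lay above every NBD library, where 14.6% of all genes had BD and NBD ranges that did not overlap, in either direction. The log2 fold change of MYC, 0.58 ± 0.21, was not called (edgeR, adjusted p = 0.814). LARP1, which binds the TOP motif, stood at 106 to 286 CPM and MTOR at 98.0 to 227 CPM, and both overlapped between groups. Other protein-coding genes with transcripts under 1000 bases and above 100 CPM, 460 in number, moved less than the ribosomal proteins and in the same direction in the outlying libraries, at -0.29 in NBD replicate 1 and 0.18 in BD replicate 2. Above the same CPM, genes of 1000 to 2000 bases were at -0.26 and 0.16 in these libraries. Those of 2000 to 4000 bases were at -0.14 and 0.031, and those of 4000 bases or more at 0.084 and -0.17.

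**Figure D5:**
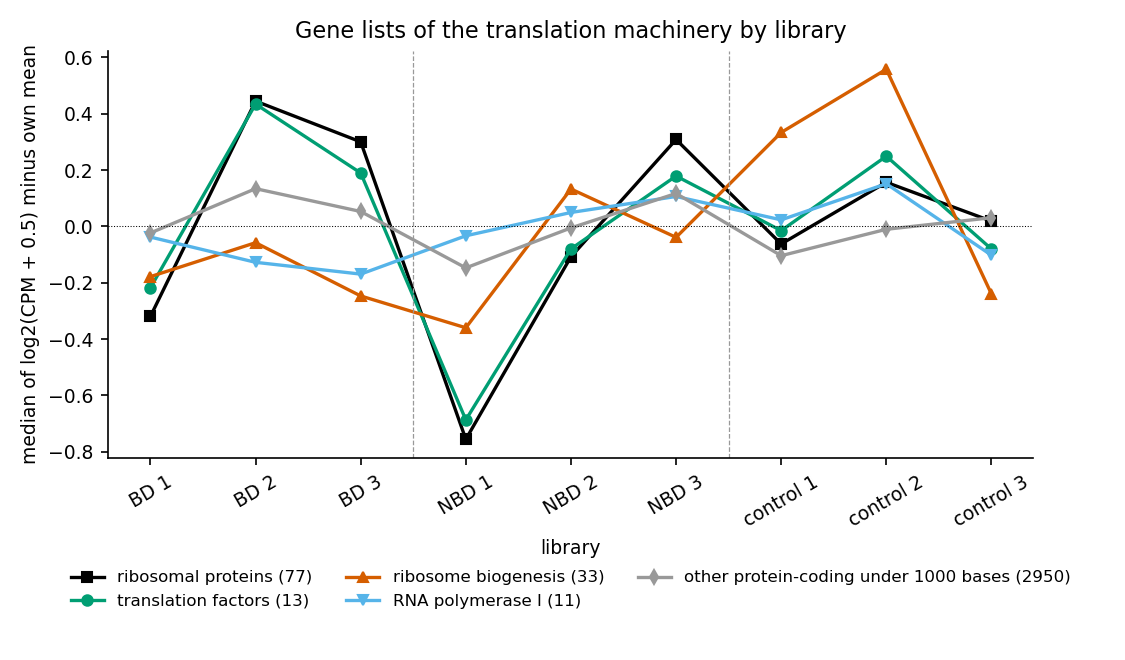
Median over each gene list of log2(CPM + 0.5) minus each gene's own mean (vertical axis) by library (horizontal axis). The 13 translation factors run beside the 77 ribosomal proteins, from -0.69 in NBD replicate 1 to 0.43 in BD replicate 2, while the 33 genes of ribosome biogenesis are highest at 0.56 in control replicate 2.

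Within the ribosomal proteins, genes with and without a TOP start at the annotated position had similar median fold changes. In BD against NBD the median log2 fold change was 0.30 for the 42 genes with a TOP start, RPLP0, RPS6 and RPS3 among them, and 0.23 for the 20 matched genes without one, such as RPL9 and RPS27A. In NBD against control the medians were -0.18 and -0.19. Host genes of small nucleolar RNAs, 28 of the 77, had a median of 0.33 in BD against NBD and the other 49 a median of 0.27. Of the 60 small nucleolar RNAs inside these hosts, 20 had any count, and their summed level was 12.4 to 23.0 CPM a library. Several with 0 counts, such as SNORD24 in RPL7A and SNORA64 in RPS2, overlap annotated exons of the host. SNORD15A in RPS3 overlaps them too and had 29 counts over all libraries. The handling of overlapping reads is not given, so 0 counts need not mean that the RNA was absent.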

How the data were processed

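The deposited values are unscaled read counts for each gene. The submitters' processing notes name FastQC 0.74, Trimmomatic 0.39, STAR 2.7.11b, featureCounts and the build GRCh38. Libraries were stranded and depleted of rRNA, per the labels' protocols. The sources used here do not give the annotation release, the strand setting or the handling of overlapping and multi-mapping reads. Symbols were found for 61512 of 78899 gene IDs, and types, lengths and coordinates came from GENCODE 29.

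Genes were filtered with filterByExpr, scaled by TMM and fitted by edgeR 4.0.16 in R 4.3.3 with a term per group over all 9 libraries. The 3 groups were compared pairwise by the quasi-likelihood F-test, two-sided, with p-values adjusted by Benjamini-Hochberg across every gene in the fit and a threshold of 0.05. Levels are CPM relative to the TMM-scaled total. Log2 fold changes carry their standard error. Alternatives were DESeq2 1.42.0, other scalings and filters, the replicate number as a block, a length trend, and each library left out in turn. The test was checked on simulated counts, where it recovered most 4-fold changes but few changes of 2-fold or 1.5-fold. Replicates differed by more than counting noise.

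The members, gene lists, markers and alternatives were chosen with earlier results of these data known. Named are members called with all libraries or without control replicate 3, the 4 standard subunits with the largest change per direction and comparison, fixed members with their paralogs, and fixed genes of the related lists with up to 3 called ones. Some genes that this rule names are not reported here. Promoter sequences are from RefSeq (GRCh38.p14). Figures used matplotlib 3.10.9 (Python 3.11.15).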

Additional observations from a re-analysis of the deposited data

How the results depend on the processing

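The count of genes called depended on the setting more than the ribosomal proteins did. For BD against NBD, 3 genes were called as reported, 50 by DESeq2, 131 with no filter on low counts, 5 with the 2 groups compared alone, 9 with control replicates 1 and 2 left out together, 0 with library totals only, and 0 to 16 when leaving out 1 library each. For BD against control, 0 genes became 180 by DESeq2, 1162 of the 39344 genes fitted with no filter, and 0 to 4317 when leaving out 1 library. For NBD against control, 0 became 43, 594 and 0 to 3228. The highest counts of each range came without control replicate 3. The cause was not tested.

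Of the 77 standard ribosomal protein genes, 0 were called as reported. DESeq2 called 1 in BD against NBD (RPL36A), against 0.273% of genes. With no filter 1 was called in NBD against control (RPS16), where calls rose across all genes. Leaving out 1 library gave 0 to 2 against the control. The 2 of 77 (2.6%) came without control replicate 3, where 24.3% of all genes were called in BD and 18.2% in NBD. With no filter, RPL22L1 was also called against the control.

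Library totals only, without TMM, moved the median of all genes from -0.015 to 0.091 in BD against NBD and from 0.037 to -0.13 in NBD against control. Under this scaling RPL22 (0.082) and RPS28 (0.086) changed sign in BD against NBD, and 75, 46 and 4 of the 77 standard subunits were above 0 in the 3 comparisons. With control replicates 1 and 2 left out together, RPS16 (0.17), RPL7 (0.17) and RPL22L1 (0.073) changed sign in BD against control, as did RPS27 (-0.22), RPS3 (-0.18) and RPL22L1 (0.058) in NBD against control.

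When leaving out 1 library, RPL22 ran from -0.25 to 0.19 and RPS28 from -0.32 to 0.16 in BD against NBD, and RPS27 from -0.12 to 0.69 and RPS3 from -0.11 to 0.51 in NBD against control. The median over the standard subunits ran from 0.053 to 0.59, from -0.023 to 0.29 and from -0.47 to 0.056. In BD against control this median, 0.11 as reported, was 0.054 with library totals only and 0.050 with a trend on transcript length removed.

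The labels do not say whether replicate numbers pair the samples, and the main fit held no term for them. Deviations of same-numbered libraries correlated at 0.61, 0.068 and 0.33 between BD and NBD. They correlated at 0.25, 0.040 and 0.26 between BD and control, and at 0.036, 0.44 and 0.37 between NBD and control. All of these were positive, while differently numbered libraries ran from -0.57 to 0.42. The 0.42 was between BD replicate 2 and NBD replicate 3. Deviations were taken from the group mean and sum to 0 within a group for each gene. Positive values for same numbers therefore push the others down, and the contrast cannot show whether the samples are paired. With the replicate number as a block, 0 genes were called in each comparison, and the medians were 0.30, 0.077 and -0.24. At this depth the standard subunits had at least 95 counts a library, so the spread between replicates, not counting error, limits these comparisons.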
